A study of Mus musculus with 6 samples.

Results

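The genes described here are 7 markers of the secretory and ciliated cells that line the nasal side of the upper airway: Bpifa1, Reg3g, Cyp2f2, Muc4, Elf5, Sec14l3 and Ccdc39. They were chosen by symbol, as a list of airway epithelial genes, with earlier results of these data known. All 7 of 7 were found among the 23366 genes counted. The libraries came from mouse palatal shelves, the paired outgrowths that form the secondary palate, dissected at stage E14.25. There were 3 wild type libraries, labelled WT and numbered 2, 3 and 4, and 3 knockout libraries, labelled Kmt2dfl/fl Wnt1-Cre and numbered 1, 2 and 3. Kmt2d encodes a histone H3 lysine methyltransferase that is mutated in Kabuki syndrome. Wnt1-Cre recombines floxed alleles in the dorsal neural tube and neural crest lineage, which gives rise to most palatal mesenchyme, whereas the palatal epithelium has another origin. Whether the wild type embryos carried floxed alleles or Cre, and how many embryos went into a library, is not stated in the sources used here. The labels call the samples biological replicates and say no more, so p-values measure the spread between these libraries, which may in part be technical.

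The palatal shelf has an oral surface, which becomes stratified squamous epithelium, and a nasal surface, which becomes respiratory epithelium. Mature respiratory epithelium holds secretory cells, which release antimicrobial proteins and mucins, and multiciliated cells, which move the mucus with motile cilia. The multiciliated programme is driven by the regulators Gmnc, Mcidas and Foxj1 before the dynein arms and their docking proteins are built.

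Read pairs assigned to genes totalled 20785074 to 24916079 per wild type library and 12721979 to 20203309 per knockout library. Knockout replicate 2 stood apart from the other libraries. In its file 47.5% of pairs overlapped no feature used for counting, where the other 5 libraries had 12.3% to 18.1%. Whether those pairs lay in introns or between genes is not known here. Knockout replicate 2 alone lay far out on the first principal component of log2 CPM. The edgeR results of the 6 members tested are therefore given with and without it. The groups also differed apart from that library: 51.4% and 57.8% of pairs were assigned to genes in knockout replicates 1 and 3, against 63.6% to 66.4% in the wild type. Pairs with no unique alignment made up 30.3% and 27.7% of all pairs there, against 18.4% to 21% in the wild type. The part of these differences in the members' lower knockout values was not tested. The count over the whole Kmt2d gene, listed under its older symbol Mll2, was 193 ± 20.6 CPM in the wild type and 329 ± 184 CPM in the knockout (SD, n = 3 each), where replicate 2 was highest. Its log2 fold change was 0.77, and 0.21 without that library. That count does not show whether the floxed exons were deleted. CPM, the unit used throughout, are read pairs scaled to 1 common library size after correction for composition.

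The label was checked against markers of airway epithelium, of which some were at or near 0 and others were not. Scgb1a1 (club cell secretoglobin), Bpifb1 and Tff3 (secretory cells) and Sntn (ciliary tip) had 0 counts in all 6 libraries. Scgb3a2 reached at most 4 counts, Muc5b at most 4, Muc5ac at most 3 and Scgb3a1 at most 1 in any library. Other markers were expressed, among them Wfdc2 at 36 to 285 counts, Cbr2 at 43 to 189 and Clic6 at 130 to 345 (secretory cells), and Tekt2, a protein of the ciliary axoneme, at 88 to 352. These genes were chosen for their levels. The members were themselves low in this tissue, between 0 and 347 counts in any library.

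Promoters of the members were read from RefSeq (GRCm38.p6), from 250 bases before to 50 bases after each annotated start. All 7 members matched, with 8 windows because Elf5 has 2 annotated starts. They are shown because a shared feature close to the start separates some members from the others. In the first 3 lines the capitals mark TATAAA or its reverse complement TTTATA. Ccdc39 is given as a member with no match. The windows are chr2:154142630-154142929 on the plus strand for Bpifa1, chr6:78468825-78469124 on the minus strand for Reg3g, chr16:32735636-32735935 on the plus strand for Muc4 and chr3:33844261-33844560 on the minus strand for Ccdc39, each written 5′ to 3′ along its gene.
Bpifa1: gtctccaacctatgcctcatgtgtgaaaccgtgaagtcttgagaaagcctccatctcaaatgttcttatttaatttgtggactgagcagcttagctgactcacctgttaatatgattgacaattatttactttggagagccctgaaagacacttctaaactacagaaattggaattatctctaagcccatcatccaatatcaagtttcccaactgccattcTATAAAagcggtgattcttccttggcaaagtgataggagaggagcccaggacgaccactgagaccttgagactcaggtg
Reg3g: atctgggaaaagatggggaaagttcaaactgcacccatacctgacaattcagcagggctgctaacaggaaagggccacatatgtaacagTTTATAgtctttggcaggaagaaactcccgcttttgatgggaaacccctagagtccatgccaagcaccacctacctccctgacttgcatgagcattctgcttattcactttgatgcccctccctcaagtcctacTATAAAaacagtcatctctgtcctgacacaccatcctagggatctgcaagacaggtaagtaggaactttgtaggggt
Muc4: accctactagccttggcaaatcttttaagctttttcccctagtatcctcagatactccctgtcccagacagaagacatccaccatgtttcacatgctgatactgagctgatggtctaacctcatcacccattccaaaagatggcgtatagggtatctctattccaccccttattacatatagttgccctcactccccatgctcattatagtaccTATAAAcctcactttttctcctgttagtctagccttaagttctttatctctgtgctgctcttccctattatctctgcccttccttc
Ccdc39: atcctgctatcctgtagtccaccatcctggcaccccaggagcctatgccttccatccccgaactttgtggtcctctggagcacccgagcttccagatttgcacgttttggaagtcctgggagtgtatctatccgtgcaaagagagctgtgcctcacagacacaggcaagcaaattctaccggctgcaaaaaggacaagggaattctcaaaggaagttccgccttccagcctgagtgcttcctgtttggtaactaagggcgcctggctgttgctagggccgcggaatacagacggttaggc
TATAAA, the core of the TATA box, began 29 bases before the start in Bpifa1, 27 bases before it in Reg3g and 36 bases before it in Muc4, each time on the gene's own strand. Reg3g held a further match on the opposite strand. Among 32851 RefSeq promoter windows of the same length, 13.6% held TATAAA on either strand, and 1.99% held it on the gene's strand 20 to 40 bases before the start, an interval chosen after the members' positions were seen. The forkhead core GTAAACA, the ETS core CCGGAAG and the RFX core GTTGCCA, searched on both strands, had no match in any member window. They were found in 3.65%, 8.86% and 4.38% of all windows. The windows of Elf5, Cyp2f2, Sec14l3 and Ccdc39 held none of the 4 motifs. These matches describe letters only, and no binding was measured.

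Bpifa1, an abundant secreted antimicrobial and surfactant protein of nasal fluid also known as SPLUNC1, fell in the knockout and was almost undetected there. It had 76, 46 and 38 counts in wild type replicates 2, 3 and 4, and 1, 0 and 0 counts in knockout replicates 1, 2 and 3. Every wild type library was far above every knockout library. Summed over libraries this was 160 pairs against 1, a ratio of 102 after allowing for depth, with a 95% exact conditional interval of 18.1 to 4069 for counting error only. In CPM the means were 2.13 ± 0.538 in the wild type and 0.0211 ± 0.0365 in the knockout (SD, n = 3 each). A count of 0 in knockout replicates 2 and 3 allows up to 0.227 and 0.166 CPM, the value of 3 pairs. The edgeR quasi-likelihood test with Benjamini-Hochberg adjustment over all genes gave an adjusted p of 0.0195, and 0.00744 without knockout replicate 2. Leaving out any 1 of the other 5 libraries took the adjusted p to between 0.0641 and 0.15, so the call needed each of them. The fitted log2 fold change, which for so low a gene depends on the prior count, was -6.29, and between -8.50 and -5.73 when single libraries were omitted (-5.95 for knockout replicate 2). In tissue RNA such as this, fewer cells of a type and less RNA per cell cannot be told apart.

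Bpifa1 was the only 1 of the 7 members past the threshold. The background was 0.534% of the 14233 genes tested called in either direction and 0.436% called lower. The other 6 members gave 0 calls, although 4 of the 5 tested among them (all but Muc4) had an unadjusted p under 0.05, 3 with lower and 1 with higher knockout values. Over all genes tested, 6.69% were lower and 7.51% higher at that level, 2021 of 14233 in all. DESeq2 and limma voom also called Bpifa1 alone, against 2.28% and 0.358% of genes called lower by those tools, as did edgeR without knockout replicate 2, against 1.57%. Sec14l3 was too low to enter the test, and Bpifa1 and Reg3g entered it through the wild type libraries.

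**Figure D1:**
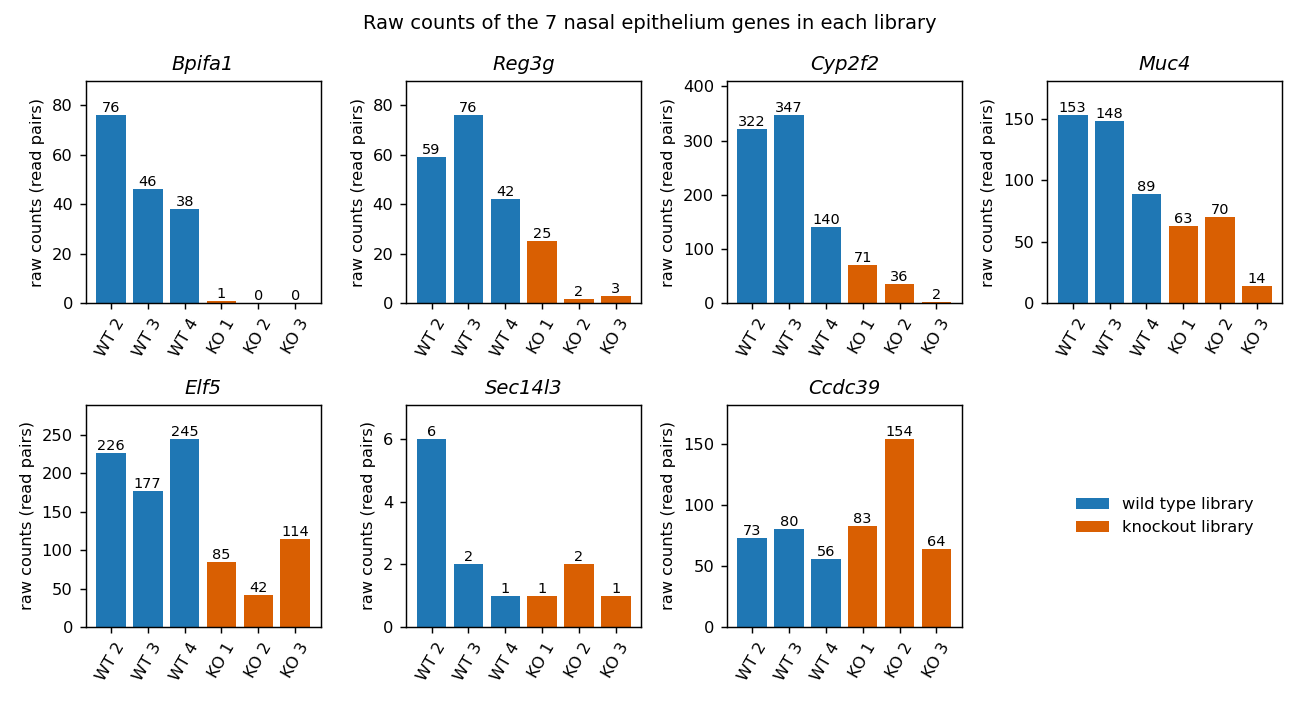
Raw counts of read pairs (vertical axes, each panel with its own scale) for the 7 members in each library (horizontal axes), wild type in blue and knockout in orange, 1 bar per library with its count above it. The 3 knockout bars of Bpifa1 stand at 0 or 1 while its wild type bars stand between 38 and 76, and Ccdc39 is highest in knockout replicate 2 at 154.

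Reg3g, a secreted C-type lectin that kills Gram-positive bacteria, was also lower in the knockout libraries, but unevenly so. It had wild type counts of 59, 76 and 42 and knockout counts of 25, 2 and 3. The groups did not overlap in CPM, at 1.81 to 3.41 against 0.151 to 1.58, yet knockout replicate 1 lay close to the lowest wild type library. The log2 fold change was -1.92 (SE 0.727), with an adjusted p of 0.323 by edgeR's quasi-likelihood test. Without knockout replicate 1 it was -3.88, and without knockout replicate 2 it was -1.54, with an adjusted p of 0.281. After allowing for depth, the summed wild type counts were 3.78 times the knockout counts (counting interval 2.55 to 5.76).

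Cyp2f2, a cytochrome P450 of airway club cells and olfactory mucosa that oxidises inhaled compounds, had wild type counts of 322, 347 and 140 and knockout counts of 71, 36 and 2. The means were 11.01 ± 4.78 CPM and 2.44 ± 2.20 CPM (SD, n = 3 each), and the groups did not overlap. Its log2 fold change of -2.19 (SE 0.80) did not pass the edgeR quasi-likelihood test, with an adjusted p of 0.317. Without knockout replicate 2 these were -2.33 and 0.424. Knockout replicate 3 held almost none of the transcript, whereas knockout replicate 1 held 4.49 CPM, near the lowest wild type value of 6.03 CPM. The low Cyp2f2 library was thus not the library that stood apart.

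Muc4, a membrane-tethered mucin of the airway surface, had wild type counts of 153, 148 and 89 and knockout counts of 63, 70 and 14. The groups overlapped in CPM, at 3.83 to 6.63 against 0.773 to 5.30. Knockout replicates 1 and 2 lay within the wild type range and knockout replicate 3 below it. The log2 fold change was -0.69 (SE 0.567), with an adjusted p of 0.577 by edgeR. Without knockout replicate 2 it was -1.21, with an adjusted p of 0.349. Muc20 overlaps Muc4 on the other strand but had at most 3 counts in any library.

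Elf5, an ETS-family transcription factor of glandular and other epithelia, had wild type counts of 226, 177 and 245 and knockout counts of 85, 42 and 114. Its CPM values were 8.84 ± 1.48 in the wild type and 4.95 ± 1.60 in the knockout (SD, n = 3 each), and the groups did not overlap. The log2 fold change was -0.83 (SE 0.274) and the adjusted p from edgeR was 0.285. Without knockout replicate 2, its lowest library, the change was -0.60 and the adjusted p 0.182.

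In 4 of the 7 members, Bpifa1, Reg3g, Cyp2f2 and Elf5, every knockout library lay below every wild type library in CPM. The background was 11.2% of the 14233 genes tested with that order and 12.3% with the opposite order. Of 30 general epithelial genes, described below, 23 had that order and 0 the opposite one, so the order was not particular to the members. The knockout library with the lowest CPM was not the same for each member. It was replicate 2 for Elf5 and replicate 3 for Cyp2f2 and Muc4. For Reg3g, knockout replicates 2 and 3 were too low to rank, at 2 and 3 counts.

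Sec14l3, a lipid-binding protein of the Sec14 family known from airway ciliated cells, was close to the limit of detection in both groups. It had wild type counts of 6, 2 and 1 and knockout counts of 1, 2 and 1. The summed counts of 9 and 4 gave a ratio of 1.44 after allowing for depth (counting interval 0.402 to 6.40). A difference was not detectable at this depth. With no filter on low counts its log2 fold change was -0.51 (SE 0.894), with an adjusted p of 0.794 by edgeR's quasi-likelihood test.

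Ccdc39, a coiled-coil protein that with Ccdc40 forms the molecular ruler of motile cilia, had higher CPM in each knockout library than in at least 2 of the 3 wild type ones. It had wild type counts of 73, 80 and 56 and knockout counts of 83, 154 and 64, or 2.87 ± 0.631 and 6.81 ± 4.28 CPM (SD, n = 3 each). The groups overlapped, and knockout replicate 2 alone reached 11.7 CPM. The log2 fold change was 1.24 (SE 0.444), with an adjusted p of 0.313 by edgeR, and 0.60 with 0.342 without knockout replicate 2. No member rose past the threshold, against a background of 0.0984% of genes called higher. Ccdc39 was the 1 member with a positive change and an unadjusted p under 0.05, and neither DESeq2 nor limma voom called it.

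The exons of Ccdc39 overlap those of Ttc14, a gene on the other strand, and the counting protocol's strand setting is not known here. Of all 25-base windows in Ccdc39 transcripts, 15.7% were shared with other genes, more than for any other member. Ttc14 had wild type counts of 2198, 1630 and 1161 and knockout counts of 1379, 3227 and 1271, so both genes were highest in knockout replicate 2. Per 1000 Ttc14 counts, Ccdc39 had wild type counts of 33.2, 49.1 and 48.2 and knockout counts of 60.2, 47.7 and 50.4. On that scale knockout replicate 2 lay within the wild type range and knockout replicates 1 and 3 lay above it. How many Ccdc39 counts came from Ttc14 reads was not tested.

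**Figure D2:**
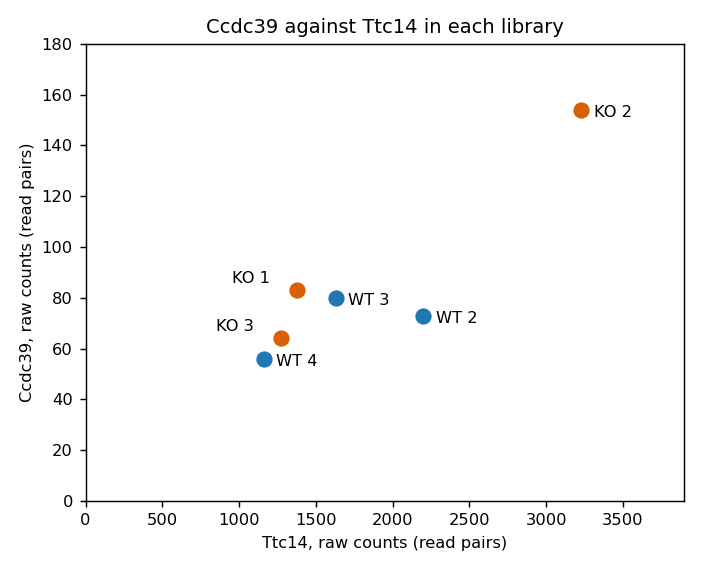
Raw counts of Ccdc39 (vertical axis) against those of Ttc14, the overlapping gene on the other strand (horizontal axis), 1 point per library, wild type in blue and knockout in orange. Knockout replicate 2 holds the most counts of both, 154 and 3227, and the other 5 libraries lie between 56 and 83 for Ccdc39.

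Levels between the members were compared per kilobase of exon. In the wild type Cyp2f2 was highest at 5.44 ± 2.36 CPM per kb (SD, n = 3). Elf5, Bpifa1 and Reg3g followed at 1.5 ± 0.252, 1.38 ± 0.348 and 1.15 ± 0.402 CPM per kb, which did not differ beyond their spread. Muc4 at 0.451 ± 0.12 and Ccdc39 at 0.385 ± 0.0847 CPM per kb did not differ beyond theirs either, and Sec14l3 was lowest at 0.0415 ± 0.0317 CPM per kb. In the knockout Cyp2f2, Ccdc39 and Elf5 lay at 1.21 ± 1.09, 0.916 ± 0.575 and 0.843 ± 0.273 CPM per kb, within each other's spread. Reg3g and Muc4 lay at 0.299 ± 0.389 and 0.285 ± 0.198 CPM per kb. Bpifa1 was the lowest in the knockout at 0.0137 ± 0.0236 CPM per kb, below Sec14l3 at 0.0323 ± 0.0192 CPM per kb but within its spread. Lengths came from a later annotation than the counts.

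Genes of the epithelium as a whole were measured beside the members. The summed CPM of 30 general epithelial genes was 1032 to 1220 in the wild type and 532 to 915 in the knockout, lowest in knockout replicate 2. Of these genes, 29 of 30 had a negative change, with a median log2 fold change of -0.69 against 0.01 over all genes tested, and 20 had an unadjusted p under 0.05 (2021 of 14233 over all genes). The edgeR quasi-likelihood test called 0 of the 30 lower, limma voom 0 and DESeq2 7. Without knockout replicate 2 edgeR called 5 lower and the median was -0.49. Epcam, an epithelial adhesion molecule, was 79.1 ± 8.54 CPM in the wild type and 53.3 ± 15.1 CPM in the knockout, with an adjusted p of 0.323. Cdh1, epithelial cadherin, was 115 ± 11.8 and 70.0 ± 20.2 CPM, with an adjusted p of 0.248, and 0.0484 without knockout replicate 2. Krt15, a basal cell keratin, had the smallest p of the list, at -1.46 on the log2 scale, with an adjusted p of 0.0771, and 0.0041 without knockout replicate 2. The part of these genes' lower values in those of the members was not tested beyond the scale used next.

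The members' counts were set against the summed counts of those 30 genes. Per 100000 epithelial counts the wild type values of Bpifa1 were 262, 172 and 134 and its knockout values 7.26, 0 and 0, so its groups stayed apart. The background on this scale was 1.34% of genes with every knockout library below the wild type. Elf5 was 661 to 864 in the wild type and 597 to 688 in the knockout, and the groups overlapped. Cyp2f2 was 494 to 1295 against 515, 512 and 12.1, and Reg3g was 148 to 284 against 181, 28.4 and 18.1, each with knockout replicate 1 inside the wild type range. Muc4 was 314 to 552 in wild type libraries and 457, 995 and 84.5 in knockout ones. Ccdc39 was 198 to 299 in the wild type and 386 to 2190 in the knockout, without overlap, but 62% of all genes had that order. Used as the library size in edgeR, the epithelial sum moved the median log2 change of all genes to 0.64, took the fitted log2 fold change of Bpifa1 from -6.29 to -5.85 and its adjusted p to 0.0946, and left 0 genes called, with 7128 at an unadjusted p under 0.05.

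**Figure D3:**
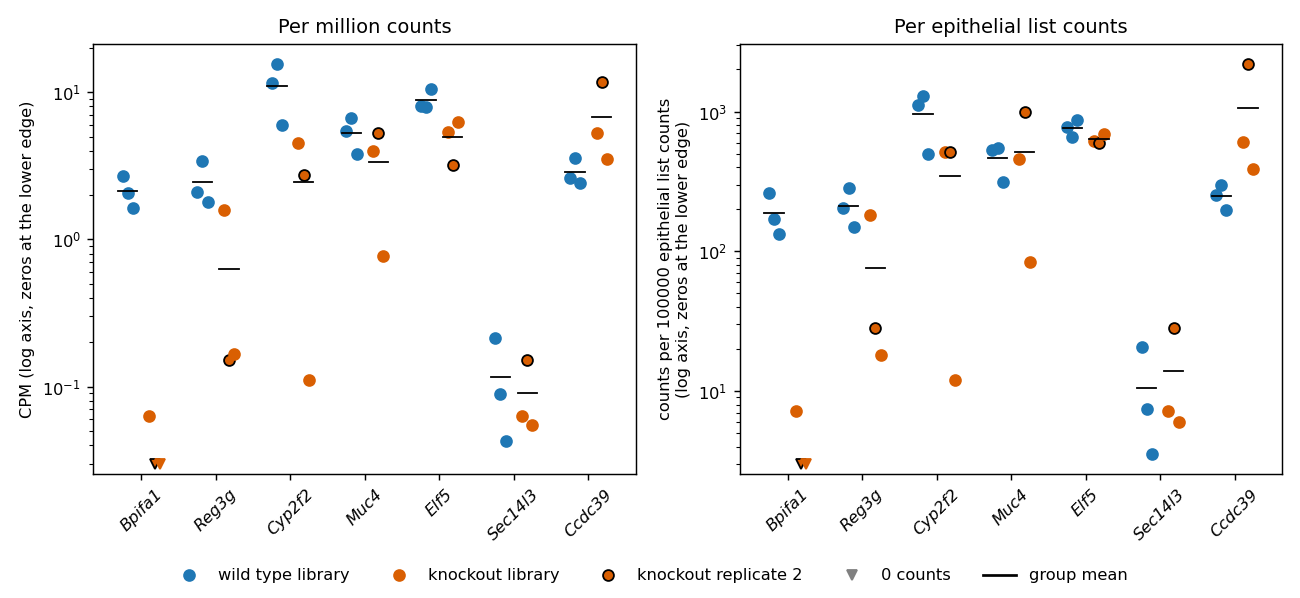
The members in each library on a pair of scales, CPM and counts per 100000 epithelial list counts (vertical log axes, with counts of 0 drawn as triangles at the lower edge), wild type in blue and knockout in orange, 1 point per library, knockout replicate 2 ringed in black and group means as short lines. Bpifa1 keeps its groups apart on both scales, while the groups of Elf5, Cyp2f2 and Reg3g overlap on the epithelial scale.

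Other airway secretory genes were read from a list of 28, of which 27 were in the files, 6 had 0 counts in all libraries and 10 were high enough to test. Their summed CPM was 99.5 to 112 in the wild type and 71.9 to 82.6 in the knockout. St6gal1 was the largest term, at 38.0 ± 4.34 CPM in the wild type and 40.5 ± 5.59 CPM in the knockout (SD, n = 3 each). Creb3l1, which mesenchyme also expresses, was next, at 27.4 ± 2.74 and 10.6 ± 5.08 CPM. The lower knockout sum thus owed much to Creb3l1. The edgeR quasi-likelihood test called 0 of 10, with 4 at an unadjusted p under 0.05 (2021 of 14233 over all genes), while limma voom called 0 and DESeq2 called 2 lower. The changes were negative in 7 of 10 (48.5% of all genes tested), with a median log2 fold change of -0.72 (0.01 over all genes). Lypd2, a Ly6-family gene of airway secretory cells, had the smallest p. It had wild type counts of 97, 86 and 53 and knockout counts of 16, 5 and 17, a log2 fold change of -2.0 (SE 0.405) with an adjusted p of 0.111, and 0.0596 without knockout replicate 2. Creb3l1, a membrane-bound transcription factor of secretory cells that bone and other mesenchyme also express, had an adjusted p of 0.172, and 0.0173 without knockout replicate 2. DESeq2 called both Lypd2 and Creb3l1 lower.

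Of 19 motile cilia genes tested, 3 (Gmnc, Foxj1 and Tekt2) had every knockout library below every wild type one in CPM and 3 (Ccdc65, Rfx3 and Gas8) had the opposite order. None of them passed the edgeR test. Over all 14233 genes tested, 11.2% had the first order and 12.3% the opposite one. With no filter on low counts, 7 of 43 cilia genes had the first order and 4 the opposite one. Over all 19262 genes of that fit, 1774 had the first order and 1978 the opposite one. Gmnc, which starts the multiciliated programme, had wild type counts of 106, 74 and 26 and knockout counts of 8, 7 and 5, a log2 fold change of -2.67 (SE 0.591) with an adjusted p of 0.143 by edgeR. Foxj1, the transcription factor of motile cilia, had wild type counts of 94, 55 and 23 and knockout counts of 11, 9 and 11, a log2 fold change of -1.78 (SE 0.521) with an adjusted p of 0.24. Wild type replicate 4 was the lowest wild type library for both genes, and per 100000 epithelial counts the groups of both overlapped. Ccdc65, a protein of the axonemal dynein regulatory complex chosen after its values were seen, had wild type counts of 21, 7 and 9 and knockout counts of 28, 19 and 32, with a log2 fold change of 1.74 (SE 0.421) and an adjusted p of 0.174. Dnaic1, an outer dynein arm subunit singled out after its values were seen, had 11, 9 and 13 counts against 1, 0 and 1 and was too low to test. Ccdc40, the partner of Ccdc39, had wild type counts of 102, 105 and 109 and knockout counts of 87, 61 and 125. In CPM that was 4.34 ± 0.617 and 5.68 ± 1.15 (SD, n = 3 each), overlapping, with an adjusted p of 0.455. Unlike Ccdc39, it was lowest in knockout replicate 2 within its group.

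The cilia list held 48 genes, of which 46 were in the files and 19 could be tested. EdgeR's quasi-likelihood test called 0 of the 19, with 5 at an unadjusted p under 0.05 (2021 of 14233 over all genes), limma voom called 0, and DESeq2 called Gmnc lower and Ccdc65 higher. The median log2 fold change was 0.12, with 6 of 19 negative, against 0.01 and 48.5% over all genes tested. The summed CPM was 122 to 125 in the wild type and 118 to 177 in the knockout, the highest being knockout replicate 2. Some of these genes, such as Rfx3, are also expressed in cells without motile cilia.

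**Figure D4:**
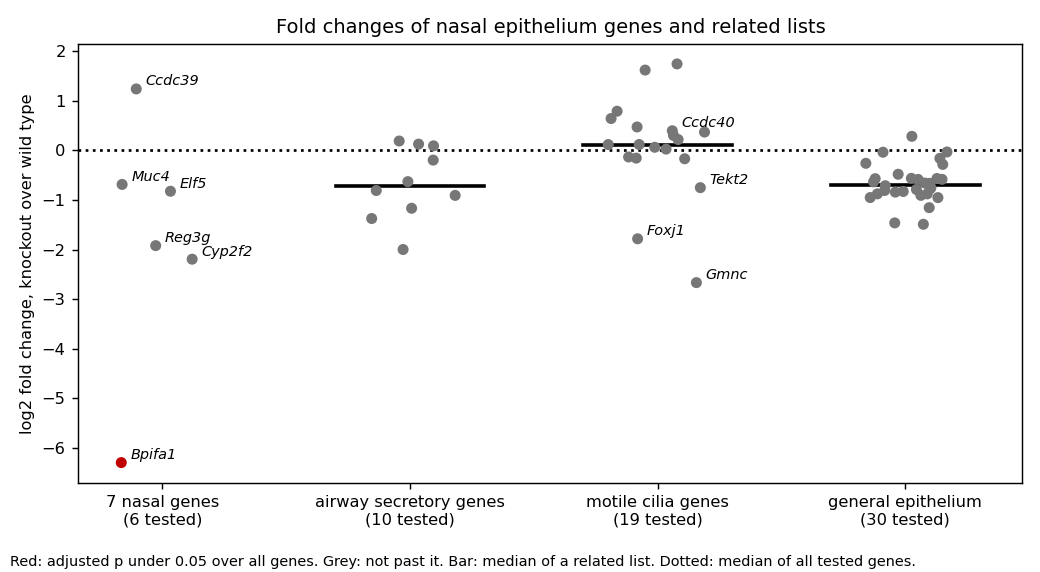
Log2 fold change of knockout over wild type (vertical axis) for each tested gene among the members and the related lists (horizontal axis), 1 point per gene, red where the adjusted p is under 0.05 and grey otherwise. The horizontal bars mark list medians, at -0.72 for airway secretory, 0.12 for motile cilia and -0.69 for general epithelial genes, and no bar is drawn for the members.

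Close relatives of the members differed widely in level, from 0 counts to at most 2636 (Sec14l1). Of 36 relatives in the files, 16 had 0 counts in all 6 libraries, among them Bpifa2, Bpifa5 and Bpifb1, so Bpifa1 was the 1 gene among the listed BPI fold genes with more than 2 counts in any library. Reg3b, the neighbour of Reg3g that shares part of its sequence, had 1 count in 1 library. Sec14l4, a relative of Sec14l3, had 1, 1 and 4 counts in the wild type and 0 in the knockout. Of 10 relatives tested, edgeR called 0, with 3 at an unadjusted p under 0.05 (2021 of 14233 over all genes), limma voom 0 and DESeq2 3. Those 3 were Ehf, Elf3 and Sec14l1. Ehf and Elf3 also belong to the 30 general epithelial genes and were counted among the DESeq2 calls there. Ehf, an epithelial ETS factor related to Elf5, had the smallest p, with 35.4 ± 6.73 CPM in the wild type and 18.9 ± 1.98 CPM in the knockout (SD, n = 3 each) and an adjusted p of 0.0825, and 0.0242 without knockout replicate 2. Elf3, another epithelial ETS factor singled out after its values were seen, was 4.72 ± 0.694 and 1.65 ± 0.52 CPM, with an adjusted p of 0.111. Shared 25-base windows made up 0.389% of Bpifa1, 0.511% of Reg3g, 1.86% of Elf5, 2.77% of Sec14l3, 5.64% of Muc4 and 11.5% of Cyp2f2, whose shared windows lie mostly in Gm15883 on the other strand, a transcript not analysed here.

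The 5 genes whose log2 CPM pattern over the 6 libraries was most like that of Bpifa1 were Aqp1, Tnip1, Hdlbp, Acvrl1 and Fcgrt, with Pearson r from 0.995 to 0.998. Aqp1, a water channel, was 38.7 ± 7.27 CPM in the wild type and 8.22 ± 1.12 CPM in the knockout (SD, n = 3 each), whereas Hdlbp differed little, at 475 ± 8.12 and 418 ± 2.18 CPM. The likeness is therefore one of shape over libraries and not of size. The 5 most like Ccdc39 were Slc24a3, Ccdc171, Trpc2, Ccnt1 and Ccdc173, with r from 0.997 to 0.999, all highest in knockout replicate 2. Among the pairs of members, r ranged from -0.964 (Elf5 with Ccdc39) to 0.911 (Cyp2f2 with Muc4). Bpifa1 had an r of 0.817 with Reg3g, 0.792 with Cyp2f2, 0.777 with Elf5, 0.533 with Muc4, 0.301 with Sec14l3 and -0.70 with Ccdc39, while Elf5 and Muc4 had an r of -0.002. These values describe 6 libraries that share groups and depth, and no p is given for them.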

How the data were processed

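Messenger RNA from 3 wild type and 3 knockout libraries was made with a stranded kit and sequenced as 25-base read pairs, per the labels' protocols. The files hold raw counts per gene symbol as the authors deposited them, with no normalisation. Per the submitters' processing notes, TopHat2, SAMtools and HTSeq were used with the build mm9 (no versions given). Which annotation and strand setting were used is not given in the sources used here. A set of 5 category lines of the counter was kept out of library sizes.

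Counts were scaled by the trimmed mean of M-values, filtered with filterByExpr and tested with edgeR 4.0.16 (quasi-likelihood, robust) in R 4.3.3, adjusted by the Benjamini-Hochberg method at 0.05 over all 14233 genes. CPM and its SD, the log2 fold change (knockout over wild type) and its SE were computed here. The alternatives used DESeq2 1.42.0 and limma 3.58.1. Summed counts were compared by exact conditional binomial intervals, at the 95% level, which cover counting error only. Likeness was Pearson's r of log2(CPM + 0.5). Within-group library pairs differed by more than sampling noise, at 11 to 153 chi-square units per degree of freedom. An exact permutation test of 3 against 3 cannot go below 0.1.

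The members, gene lists and tests were chosen with earlier results of these data known. All members, Epcam, Cdh1, Foxj1, Ccdc40 and Kmt2d were named, with genes past the threshold in each list, or else the tested gene with the smallest p, and the 5 genes most like Bpifa1 and Ccdc39. Creb3l1, St6gal1, Ccdc65, Dnaic1, Elf3, Tekt2, Rfx3, Gas8 and the genes used to check the label lie outside that rule and were picked with their values in view. The scripts were checked on simulated counts.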

Additional observations from a re-analysis of the deposited data

How the results depend on the processing

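Of 84 alternative values of the members' log2 fold changes, 77 kept their direction and their side of the threshold, 6 lost the call of Bpifa1, 1 gained a call for Reg3g and none changed direction. The 76 genes called became 0 with the epithelial sum as library size and 486 with DESeq2. They became 301 with the replicate number as a block, which compares only the libraries numbered 2 and 3. With each library left out in turn they ranged from 0 (without wild type replicate 2 or 3, with 1103 and 1117 at an unadjusted p under 0.05) to 307 (without knockout replicate 2), with 3 without wild type replicate 4, 20 without knockout replicate 1 and 11 without knockout replicate 3. The cause was not tested. Members called lower numbered 1, 0 on the epithelial scale, 2 with the block (Bpifa1 and Reg3g, the latter at -4.08 with an adjusted p of 0.000748, against 1.38% of genes called lower) and 0 to 1 with a library left out. Wild type replicate 4 and knockout replicate 1 have numbers found in 1 group only, so the block removes them from the contrast. For Reg3g the block thus left out its highest knockout library, at 25 counts against 2 and 3. General epithelial genes called lower numbered 0, 2 with no filter, 7 with DESeq2, 7 with the block and 0 to 5 with a library left out. Airway secretory genes called lower numbered 0, 2 with DESeq2, 2 with the block and 0 to 1 with a library left out, and motile cilia genes 0, 1 with DESeq2, 1 with the block and 0 with any library left out. Same-numbered libraries correlated at 0.239 (number 2) and -0.153 (number 3), so the numbers were not taken as a pairing. With a library left out, the log2 fold change ranged from -8.50 to -5.73 for Bpifa1, -1.04 to -0.60 for Elf5, -1.21 to -0.20 for Muc4, -3.08 to -1.60 for Cyp2f2, -3.88 to -1.42 for Reg3g and 0.60 to 1.55 for Ccdc39. On the epithelial scale Muc4 moved to 0.00 at 2 decimals. Depth limits Sec14l3, at 1 to 6 counts per library, and Bpifa1 in the knockout, at 0 to 1. The earlier edgeR quasi-likelihood method, added after seeing the data, called 68 genes.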

Other observations

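Markers of neighbouring tissues were read beside the members. Summed CPM of 10 nasal and foregut transcription factors was 257 to 299 in the wild type and 290 to 323 in the knockout. Foxa1, a forkhead factor of foregut and airway epithelium, had the smallest p of that list, at 24.3 ± 4.30 and 14.5 ± 1.5 CPM (SD, n = 3 each), with an adjusted p of 0.142 by edgeR's quasi-likelihood test. The olfactory list summed to 43.6 to 48.8 CPM in the wild type and 41.9 to 56.4 CPM in the knockout, and Omp, the marker of mature olfactory neurons, had at most 7 counts in any library. Its smallest p was that of Gnal, at 0.57 on the log2 scale, with an adjusted p of 0.297. Oral keratinising genes summed to 75.9 to 106 CPM and 65.8 to 114 CPM, and Krt4 had the smallest p there, at -1.51 on the log2 scale, with an adjusted p of 0.307.

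Gland, brain and pituitary markers were low in all libraries, and lung markers less so. Salivary and gland genes summed to at most 1.57 CPM in the wild type and to 1.14, 3.18 and 0.663 CPM in knockout replicates 1, 2 and 3. Amy1 was the 1 gene of that list tested, at a log2 fold change of 1.24 with an adjusted p of 0.468, and 0.34 without knockout replicate 2. Lung genes summed to 5.02 to 6.34 and 5.08 to 6.21 CPM, mostly from Lamp3 at 65 to 132 counts per library, with Hopx at 0.963 and 0.792 CPM and Sftpc at no more than 1 count, and brain and pituitary genes to at most 0.603 CPM in the wild type and 1.59 CPM in the knockout (replicate 2). Skeletal muscle genes summed to 153 to 313 CPM in the wild type and 151 to 405 CPM in the knockout (highest in replicate 2), and Myog had a log2 fold change of -0.19 with an adjusted p of 0.667. Blood and vessel genes summed to 240.3 to 249.4 CPM in the wild type and 181 to 215 CPM in the knockout, and Pecam1, an endothelial adhesion molecule, had a log2 fold change of -0.29 with an adjusted p of 0.317. The part of these tissues in the members' values was not tested.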
